A study of Homo sapiens with 7 samples.

Results

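The transcripts of YAP1 and WWTR1 (TAZ), of their DNA-binding partner TEAD1 and of 7 target genes of these factors (ANKRD1, CCN1, CCN2, AMOTL2, AJUBA, LATS2 and AXL) were followed in HEK-293 cells after prolonged acidification or inhibition of SR protein kinases. These 10 of the 19978 genes in the deposited table were named one by one, and they were selected on their measured values in the same 7 libraries that are described here, so their levels and fold changes are given as a description with no test. All 10 passed the filter on low counts. HEK-293 is a line of human embryonic kidney cells that grows attached to the dish, and SRPIN340 is an inhibitor of the kinases that phosphorylate SR-rich splicing factors. Poly(A) RNA was sequenced after 48 h, and by the study's methods every medium held DMSO. Control medium was of pH 7.4 (control, n = 2). Medium of pH 7.4 with 10 µM SRPIN340 was the second condition (SRPIN340, n = 2), and acidified medium of pH 6.6 the third (acidosis, n = 3). The acidified arm did not receive SRPIN340, and both comparisons used the same 2 control libraries. The study's methods give 2 biological repeats for control and SRPIN340 and 3 for acidosis, with 3 replicates of each. The labels number the repeats without naming separate cultures. The p-values below therefore measure only the spread between these samples, part of which may be technical.

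In the Hippo pathway, the kinases STK3 and STK4 activate LATS1 and LATS2, which phosphorylate the coactivators YAP1 and WWTR1 and thereby keep them in the cytoplasm or send them to degradation. Unphosphorylated YAP1 and WWTR1 enter the nucleus, bind TEAD proteins on DNA and switch on genes of growth, adhesion and the extracellular matrix. Several of these targets, among them LATS2, AMOTL2 and AJUBA, encode regulators of the pathway itself, so that transcripts of targets and of regulators overlap. Transcript counts do not measure the phosphorylation or the location of YAP1 and WWTR1, which set their activity.

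The letters in front of the genes were compared with the motif that TEAD proteins bind. RefSeq promoter windows (GRCh38.p14, from 250 bases before to 50 bases after an annotated start) matched 8 of the 10 genes with 12 windows, and CCN1 and TEAD1 had no entry. They were searched on both strands for the core of the TEAD motif, GGAATG. The core was found in 7 of the 12 windows and in 14% of 35116 RefSeq windows of the same length. The 250 bases before the start are printed for 4 of these windows. ANKRD1 and CCN2 are shown because they held more than 1 match and were among the 3 genes with the largest differences, AMOTL2 because it held a single match, and AXL because it also held a match and was the only 1 of the 10 genes that was lower in acidosis. The core is in capitals, and a match on the opposite strand reads CATTCC.
ANKRD1 (chr10:90921088-90921337, minus strand): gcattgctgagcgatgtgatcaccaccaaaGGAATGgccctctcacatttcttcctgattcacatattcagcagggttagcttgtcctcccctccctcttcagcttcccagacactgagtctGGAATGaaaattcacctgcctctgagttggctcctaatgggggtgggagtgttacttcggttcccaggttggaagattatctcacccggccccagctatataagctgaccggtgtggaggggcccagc
CCN2 (chr6:131951373-131951622, minus strand): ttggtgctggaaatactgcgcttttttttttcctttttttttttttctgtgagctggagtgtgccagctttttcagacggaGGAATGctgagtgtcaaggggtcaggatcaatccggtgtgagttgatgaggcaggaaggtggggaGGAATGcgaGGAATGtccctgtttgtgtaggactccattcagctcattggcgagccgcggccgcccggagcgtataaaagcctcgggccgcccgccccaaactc
AMOTL2, window 2 (chr3:134374448-134374697, minus strand): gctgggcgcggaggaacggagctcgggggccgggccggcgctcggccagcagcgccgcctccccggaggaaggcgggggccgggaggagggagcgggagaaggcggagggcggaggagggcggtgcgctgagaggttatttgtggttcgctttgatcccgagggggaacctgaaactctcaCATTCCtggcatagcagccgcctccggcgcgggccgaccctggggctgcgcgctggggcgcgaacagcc
AXL, window 2 (chr19:41226505-41226754, plus strand): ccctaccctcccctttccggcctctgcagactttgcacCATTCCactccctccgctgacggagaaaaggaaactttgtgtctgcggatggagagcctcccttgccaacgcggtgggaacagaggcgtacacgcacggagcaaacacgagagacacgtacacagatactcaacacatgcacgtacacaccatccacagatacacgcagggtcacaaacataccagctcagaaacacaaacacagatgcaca

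The ANKRD1 window held 2 cores on the strand of the gene, from -220 to -215 and from -128 to -123 relative to the start. The CCN2 window held 3, from -169 to -164, from -104 to -99 and from -95 to -90, the last a closely spaced pair. Of all RefSeq windows, 1.37% held at least 2 cores and 0.128% at least 3. AMOTL2 held 1 core on the opposite strand from -69 to -64 of its second start, and AXL held 1 on the opposite strand from -212 to -207 of its second start, whose printed bases lie in an intron of the gene. AJUBA (second window, -59 to -54), YAP1 (-162 to -157) and LATS2 (10 to 15 bases after the start) held 1 each on the strand of the gene. The 2 WWTR1 windows held none. The AP-1 motif TGANTCA, which is its own reverse complement and shares no base with the TEAD matches in these windows, occurred in 1 of the 12 windows, that of ANKRD1 at -195 to -189, and in 7.71% of all windows. The CArG box of serum response factor occurred in 0 of the 12 windows and in 1.29% of all windows. Of the 16 other YAP/TEAD target genes listed, 11 had a window, and 4 of these windows held the core (FOXF2, NUAK2, PTPN14 and TGFB2). A match is a description of the letters and shows neither a bound site nor a cause, and the windows do not reach distal enhancers.

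**Figure D1:**
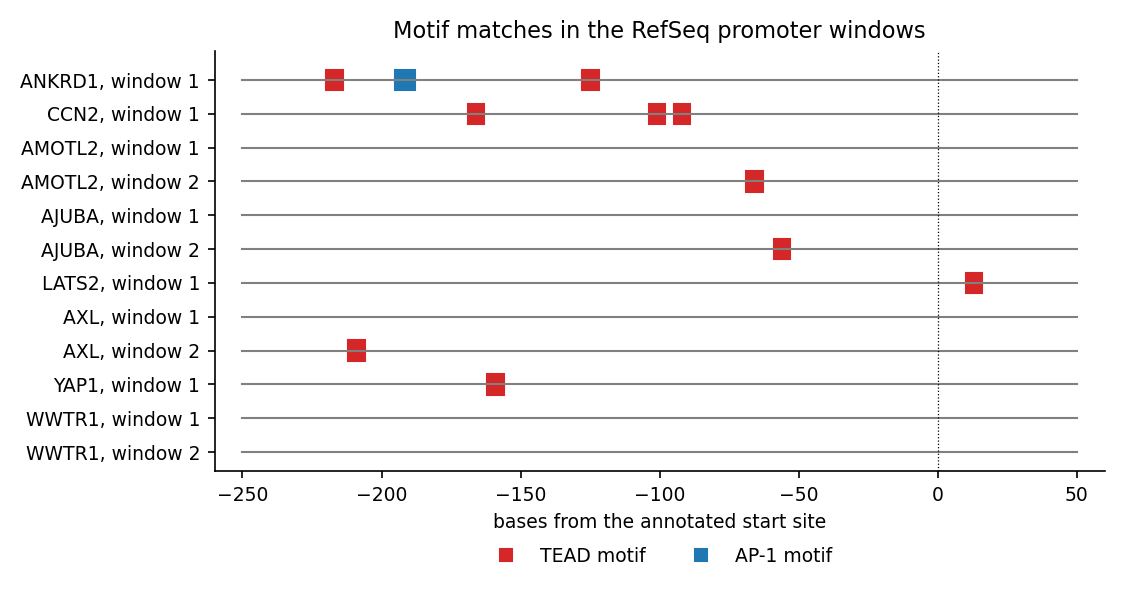
Motif matches along the 12 promoter windows of 8 genes. The x axis is the distance in bases from the annotated start, red boxes are TEAD cores on either strand, and the blue box is the AP-1 motif. ANKRD1 and CCN2 are the windows with more than 1 TEAD core.

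Library totals lay between 13615944 and 24110439 estimated counts, with acidosis replicates 2 and 3 the smallest. The share of counts held by the 100 most abundant genes was 15.2% to 15.4% at pH 7.4 and up to 24.8% at pH 6.6. All 9 HEK-293 markers were detected in every group, with a summed level, in normalized counts scaled to a common library size (CPM), of 1456 to 1509 CPM in control, 1466 to 1526 CPM in SRPIN340 and 3530.1 to 3542 CPM in acidosis, most of it VIM, which encodes vimentin. Markers of blood, endothelial, fibroblast, liver and muscle cells summed to 40.2 to 41.0 CPM, 39.8 to 48.5 CPM and 75.2 to 78.9 CPM, with 2 of the 9 (CD3E and CDH5) at 3 counts or fewer in every library. The part of these markers in the differences below was not tested. In RNA from whole cultures, fewer cells that express a gene and less of its RNA per cell cannot be told apart.

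The targets that encode ANKRD1, CCN1 and CCN2 were the 3 of the 10 genes that stood farthest above control in acidosis. ANKRD1 (ENSG00000148677.7, chr10:90912096-90921087) encodes a protein of ankyrin repeats that is found in the nucleus and in the sarcomere and is widely used as a readout of YAP and TAZ activity. It was at 1.80 and 2.25 CPM in control, at 8.55 and 6.45 CPM with SRPIN340, and at 1269, 1292 and 1340.3 CPM in acidosis. The 3 groups were fully apart, and the control level rests on 50 and 64 counts. The log2 fold change was 9.32 ± 0.147 (SE) in acidosis, or 640.0-fold, and 1.89 ± 0.164 (SE) with SRPIN340, or 3.70-fold. Acidosis was 173-fold above SRPIN340.

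CCN1 (CYR61, ENSG00000142871.18, chr1:85580761-85584589) encodes a secreted matricellular protein that binds integrins. It was at 22.5 and 21.9 CPM in control, at 32.0 and 30.4 CPM with SRPIN340, and at 4425, 4432 and 4702 CPM in acidosis. Its replicates lay close together, with the SRPIN340 libraries a little above control and the acidosis libraries far above both. Against control the log2 fold change was 7.67 ± 0.0771 (SE) in acidosis, or 204-fold, and 0.49 ± 0.0657 (SE) with SRPIN340, or 1.40-fold.

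CCN2 (CTGF, connective tissue growth factor, ENSG00000118523.6, chr6:131948176-131951372) is the paralog of CCN1 whose 3 promoter cores are printed above. It was at 6.02 and 6.11 CPM in control, at 9.88 and 7.33 CPM with SRPIN340, and at 1000.5, 988 and 1067 CPM in acidosis. As for CCN1, both SRPIN340 libraries were above control and the acidosis libraries were apart from all others. In acidosis the log2 fold change was 7.39 ± 0.132 (SE), or 168-fold. With SRPIN340 it was 0.51 ± 0.137 (SE), or 1.42-fold, and 0.27 without SRPIN340 replicate 1, the higher of the 2 libraries.

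Together ANKRD1, CCN1 and CCN2 took 0.00355% and 0.00357% of all counts in control, 0.00610% and 0.00534% with SRPIN340, and 0.527%, 0.537% and 0.556% in acidosis. These shares use the raw library totals and do not depend on the scaling between libraries. Of the 14863 genes tested, ordered from the highest log2 fold change in acidosis, ANKRD1 was number 3, CCN1 number 9 and CCN2 number 13. With SRPIN340 the same genes were number 58, 1194 and 1130.

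AMOTL2 and LATS2 formed a second step. AMOTL2 (ENSG00000114019.15, chr3:134355347-134375479) encodes an angiomotin, a scaffold of cell junctions that binds YAP1 and keeps it out of the nucleus. It was at 7.78 and 5.83 CPM in control, at 8.29 and 7.06 CPM with SRPIN340, and at 46.7, 46.5 and 42.3 CPM in acidosis. The SRPIN340 libraries overlapped control, and the acidosis libraries lay above all others. Its log2 fold change was 2.73 ± 0.163 (SE) in acidosis, or 6.64-fold, and 0.18 ± 0.172 (SE) with SRPIN340.

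LATS2 (ENSG00000150457.9, chr13:20973036-21061586) encodes the kinase that phosphorylates YAP1 and WWTR1 and is itself one of their targets. It was at 11.7 and 10.2 CPM in control, at 15.8 and 15.1 CPM with SRPIN340, and at 54.3, 61.9 and 57.8 CPM in acidosis. The 3 groups did not overlap. The log2 fold change was 2.40 ± 0.123 (SE) in acidosis, or 5.28-fold, and 0.50 ± 0.128 (SE) with SRPIN340, or 1.41-fold.

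AJUBA and AXL did not share this pattern. AJUBA (ENSG00000129474.16, chr14:22971177-22982551) encodes a LIM protein of cell junctions that binds and inhibits LATS kinases. It was at 10.1 and 7.83 CPM in control, at 11.2 and 10.7 CPM with SRPIN340, and at 24.2, 12.2 and 16.9 CPM in acidosis. Both treated groups lay above control without overlap, but the acidosis libraries spread from 12.2 to 24.2 CPM, wider for their mean than those of any other of the 10 genes. This gave a log2 fold change of 0.997 ± 0.261 (SE) in acidosis, just under the limit of 1 used for calls, and 0.29 ± 0.278 (SE) with SRPIN340.

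AXL (ENSG00000167601.12, chr19:41219223-41261766) encodes a receptor tyrosine kinase for GAS6 and was the least abundant of the 10 genes. It was at 1.37 and 1.05 CPM in control, at 1.70 and 1.97 CPM with SRPIN340, and at 0.594, 0.643 and 0.774 CPM in acidosis. All 3 acidosis libraries were below both control libraries, and both SRPIN340 libraries were above them. These levels rest on 38 and 30 counts in control, 46 and 52 with SRPIN340, and 10, 7 and 9 in acidosis. Its log2 fold change was -0.86 ± 0.414 (SE) in acidosis, or 1.81-fold lower, and 0.60 ± 0.410 (SE) with SRPIN340.

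**Figure D2:**
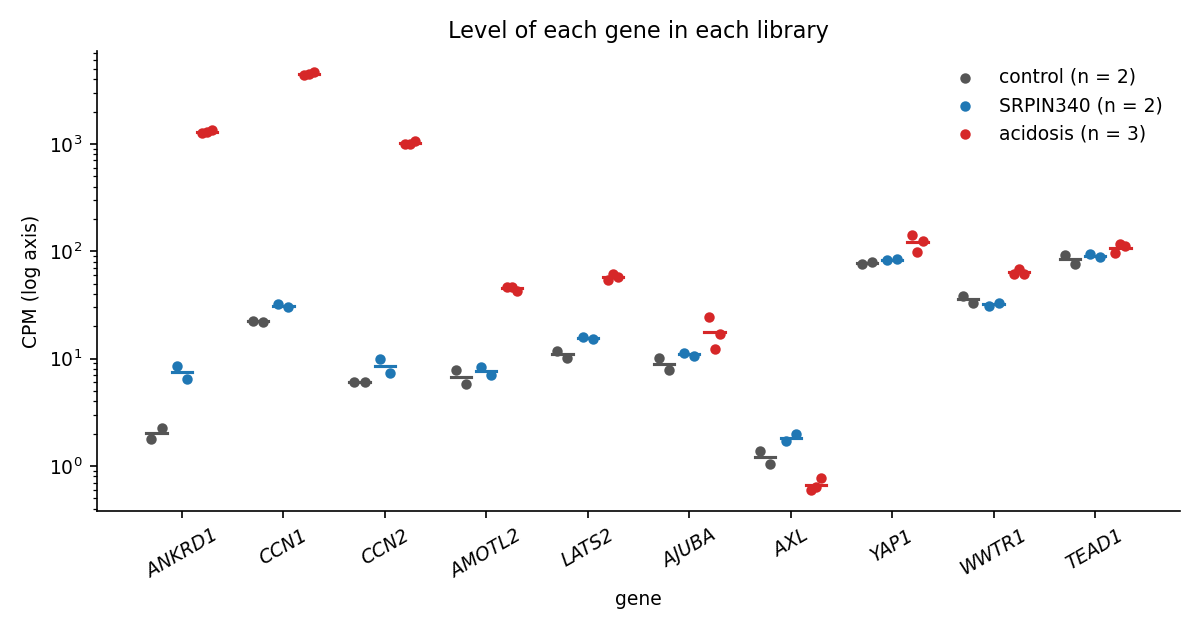
Level of the 10 genes in each of the 7 libraries. The y axis is CPM on a log scale, points are libraries, and bars are group means for control (n = 2), SRPIN340 (n = 2) and acidosis (n = 3). ANKRD1, CCN1 and CCN2 are 168-fold to 640.0-fold above control in acidosis, AMOTL2 and LATS2 by 5.28-fold to 6.64-fold, and AXL is the gene with acidosis below control.

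The transcripts of the factors themselves differed far less than those of ANKRD1, CCN1 and CCN2. YAP1 (ENSG00000137693.14, chr11:102110447-102233424) encodes the coactivator that LATS kinases hold back. It was at 76.2 and 78.6 CPM in control, at 83.3 and 84.0 CPM with SRPIN340, and at 141, 97.7 and 126 CPM in acidosis. Its groups did not overlap, but acidosis replicate 2 was nearer to SRPIN340 than to acidosis replicate 1. The log2 fold change was 0.65 ± 0.133 (SE) in acidosis, or 1.57-fold, and 0.11 ± 0.143 (SE) with SRPIN340.

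WWTR1 (ENSG00000018408.15, chr3:149517235-149736714) encodes TAZ, the paralog of YAP1. It was at 38.7 and 33.0 CPM in control, at 30.6 and 33.2 CPM with SRPIN340, and at 61.2, 68.2 and 61.7 CPM in acidosis. The SRPIN340 libraries overlapped control, and the acidosis libraries were above both. Against control its log2 fold change was 0.83 ± 0.108 (SE) in acidosis, or 1.78-fold, and -0.17 ± 0.116 (SE) with SRPIN340.

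TEAD1 (ENSG00000187079.20, chr11:12674421-12944737) encodes a member of the TEAD family, whose proteins bring YAP1 and WWTR1 to the GGAATG core. It was at 92.7 and 76.2 CPM in control, at 94.2 and 87.5 CPM with SRPIN340, and at 95.6, 116 and 111 CPM in acidosis. The acidosis libraries were above control by less than the distance between the 2 control libraries at their nearest point, and SRPIN340 overlapped control. The log2 fold change was 0.34 ± 0.112 (SE) in acidosis, or 1.27-fold, and 0.10 ± 0.121 (SE) with SRPIN340. Scaling by library totals alone moved the median over all genes in acidosis from -0.05 to -0.63, and under it TEAD1 turned to -0.23, while YAP1 was at 0.08, WWTR1 at 0.26 and AJUBA at 0.42. ANKRD1 was at 8.75, CCN1 at 7.09, CCN2 at 6.82, AMOTL2 at 2.16, LATS2 at 1.83 and AXL at -1.43 under that scaling.

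**Figure D3:**
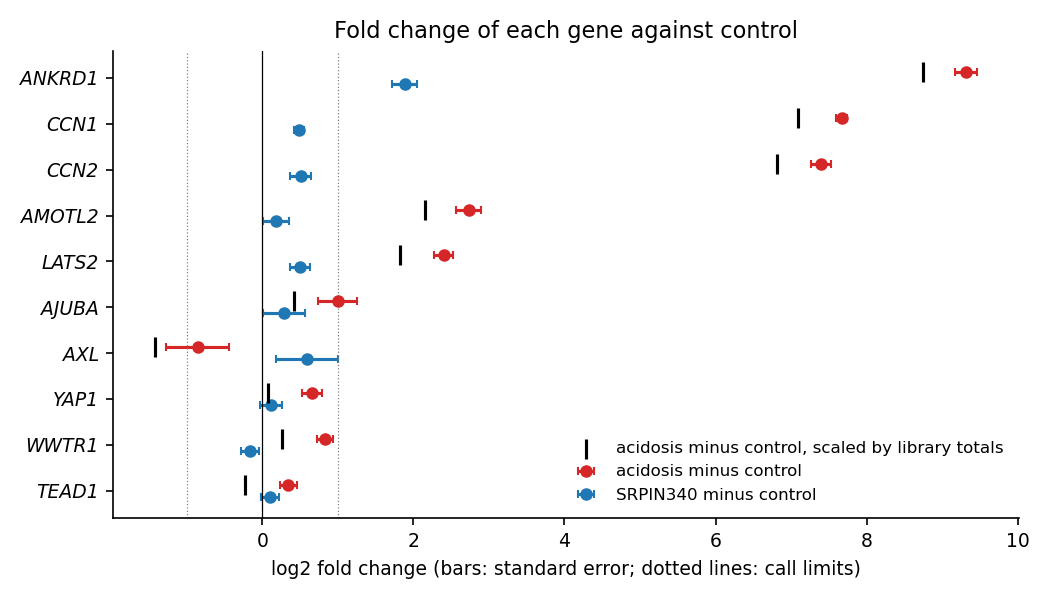
Log2 fold change of the 10 genes against control. Red points are acidosis minus control and blue points SRPIN340 minus control, with bars for the standard error; black ticks are acidosis minus control scaled by library totals, and dotted lines are the limits for calls. In acidosis ANKRD1 is at 9.32, and with SRPIN340 it is at 1.89, the only blue point past a limit; TEAD1 is at 0.34 and turns to -0.23 with library totals.

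The calls of the 10 genes are given beside those of all genes. A gene was called where edgeR gave a Benjamini-Hochberg adjusted p under 0.05 and the log2 fold change was over 1 in either direction. In acidosis 14.4% of the 14863 genes tested were called higher and 19.1% lower, and of the 10 genes 5 were called higher (ANKRD1, CCN1, CCN2, AMOTL2 and LATS2) and 0 lower. With SRPIN340 0.128% of all genes were called higher and 0.195% lower, and of the 10 genes ANKRD1 was called higher and 0 were called lower. By adjusted p alone, with no limit on the fold, 32.5% of all genes were higher and 34.2% lower in acidosis, and of the 10 genes 9 were higher and 0 lower. With SRPIN340 this rule gave 0.767% of all genes higher and 1.53% lower, and of the 10 genes 2 higher and 0 lower. Since these contrasts chose the genes, nothing is read from these counts. The median log2 fold change of the 10 was 1.70 in acidosis, against -0.05 over all genes, and 0.39 with SRPIN340, against 0.0024. In acidosis 9 of the 10 lay above every control library and 1, AXL, below. With SRPIN340 7 lay above every control library, 0 below, and 3 (AMOTL2, WWTR1 and TEAD1) overlapped control. The share of all genes that lay apart from control in this way is not given here. Since these values chose the genes, nothing is read from these positions either.

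Per kilobase of transcript, which allows levels to be compared between genes, the order of the 10 was rebuilt in acidosis. In control YAP1 was the most abundant at 14.3 ± 0.315 CPM per kb (SD, n = 2), followed by CCN1 at 9.74 CPM per kb (9.60 and 9.88 in the 2 libraries), TEAD1 at 8.97 ± 1.24 and WWTR1 at 7.11 ± 0.799 CPM per kb. CCN2 followed at 2.59 ± 0.0279 and AJUBA at 2.15 ± 0.389, then LATS2 at 1.98 ± 0.199, AMOTL2 at 1.40 ± 0.284, ANKRD1 at 1.13 ± 0.176 and AXL at 0.257 ± 0.0473 CPM per kb. The libraries of the neighbouring pairs CCN1 and TEAD1, AJUBA and LATS2, and AMOTL2 and ANKRD1 overlapped in this order, and those of the other neighbours did not. With SRPIN340 ANKRD1 moved from place 9 to place 5, at 4.19 ± 0.829 CPM per kb, and its libraries overlapped those of CCN2 at 3.68 ± 0.772 CPM per kb.

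In acidosis CCN1 led with 1984 ± 69.4 CPM per kb (SD, n = 3), followed by ANKRD1 at 727 ± 20.4 and CCN2 at 436 ± 18.1 CPM per kb. YAP1 came next at 22.5 ± 4.09 CPM per kb, so that each of these 3 targets exceeded the coactivator transcripts by far. WWTR1 at 12.7 ± 0.774, TEAD1 at 11.4 ± 1.12 and LATS2 at 10.5 ± 0.686 CPM per kb overlapped with their neighbours, AMOTL2 was at 9.28 ± 0.515 and AJUBA at 4.26 ± 1.45, and AXL stayed last at 0.142 ± 0.0197 CPM per kb. The share of CCN1 in the sum of CCN1 and CCN2 was 79.0% ± 0.520 in control (SD, n = 2), 78.9% ± 2.91 with SRPIN340 (SD, n = 2) and 82.0% ± 0.138 in acidosis (SD, n = 3). The acidosis libraries, at 81.9% to 82.2%, lay a little above all others, while the sum of both paralogs went from 12.3 ± 0.172 to 2420 ± 87.3 CPM per kb.

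The TEAD family changed in its composition. TEAD2 fell in acidosis, with a log2 fold change of -1.29 ± 0.127 (SE), and its Benjamini-Hochberg adjusted p in the quasi-likelihood test of edgeR was 1.3e-05. It was at 34.5 and 31.5 CPM in control, at 31.2 and 27.6 CPM with SRPIN340, and at 13.7, 14.7 and 12.2 CPM in acidosis, and the acidosis libraries lay below all others. TEAD3 had a log2 fold change of -0.12 (adjusted p = 0.413) and TEAD4 of -0.21 (adjusted p = 0.272) in the same edgeR fit, neither of which passed. Under library totals TEAD2 was at -1.86, TEAD3 at -0.69 and TEAD4 at -0.78. Per kilobase the TEAD2 share of the 4 TEAD transcripts was 40.8% ± 0.432 in control (SD, n = 2) and 21.2% ± 1.54 in acidosis (SD, n = 3), and the TEAD1 share was between 22.6% and 25.5% in control and 38.9% ± 2.72 in acidosis. TEAD2 was thus the most abundant family member in control and TEAD1 in acidosis, a comparison within each library that no scaling between libraries alters but that rests on 1 transcript length per gene. With SRPIN340 the TEAD2 share was 33.0% ± 1.02 and the TEAD1 share 23.6% ± 0.118 (SD, n = 2). The sum of the 4 was 37.2 ± 2.04 CPM per kb in control and 29.3 ± 1.21 CPM per kb in acidosis, while the sum of YAP1 and WWTR1 was 21.4 ± 0.483 and 35.2 ± 3.36 CPM per kb. YAP1 made up 66.9% ± 2.98 of the latter sum in control and 63.6% ± 5.77 in acidosis, a difference within the spread of the libraries. Both sums, unlike the shares, depend on the scaling between libraries. Under library totals the log2 fold change in acidosis was 0.08 for YAP1 and 0.26 for WWTR1.

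**Figure D4:**
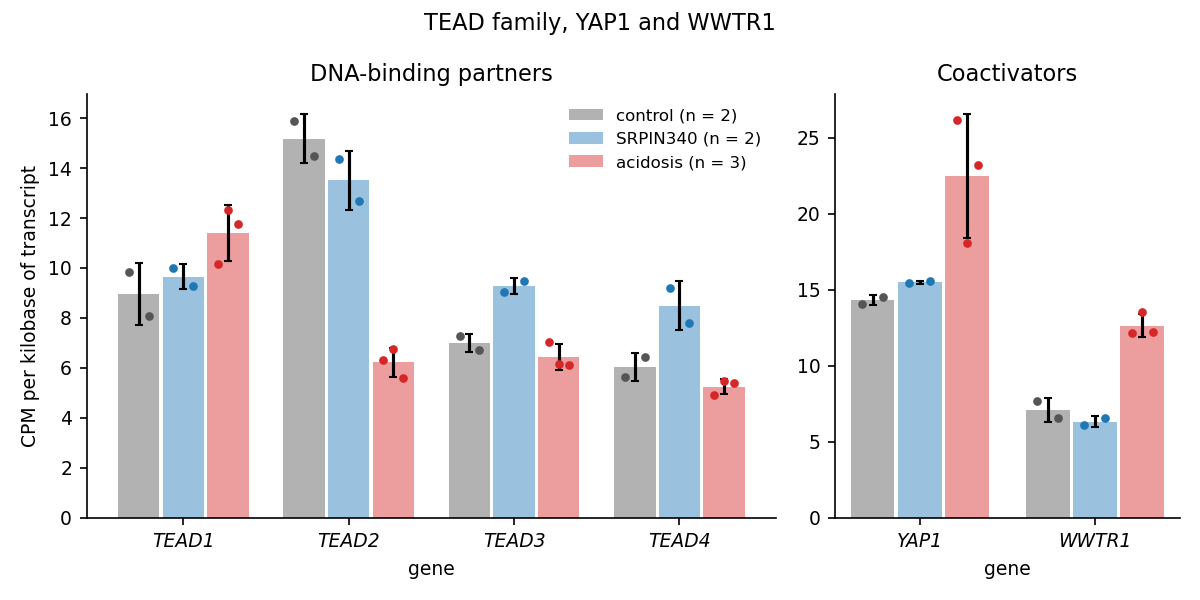
Level of the 4 TEAD genes and of YAP1 and WWTR1 per kilobase of transcript. Bars are group means from 0, error bars are SD, and points are libraries of control (n = 2), SRPIN340 (n = 2) and acidosis (n = 3); the 2 panels have separate y axes in CPM per kb. TEAD2 is the highest TEAD gene in control and TEAD1 in acidosis, and YAP1 and WWTR1 are highest in acidosis. The heights depend on the scaling between libraries, and under library totals YAP1 and WWTR1 had log2 fold changes of 0.08 and 0.26 in acidosis.

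The other genes of the pathway were taken from 7 lists with 72 genes, of which 67 were tested. In acidosis 8 rose (11.9%) and 9 fell (13.4%), close to the 14.4% and 19.1% of all genes, and their median log2 fold change was -0.003. Under library totals 3 were called higher and 21 lower, beside 5.48% and 35% of all genes under that scaling. Each adjusted p that follows is the Benjamini-Hochberg value over all genes in that edgeR fit. With SRPIN340 0 of the 67 were called by edgeR or by DESeq2, and the median log2 fold change was 0.15. In edgeR 0.128% of all genes were called higher with SRPIN340 and 0.195% lower. Of the 67, 14 had an unadjusted p under 0.05 in edgeR and 13 in DESeq2. The share of all genes at that unadjusted limit is not given here, so nothing is read from these counts.

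Of the 6 genes of the kinase cassette, 1 rose (16.7%, against 14.4% of all genes) and 0 fell (against 19.1%). LATS1, the paralog of LATS2, was at 72.6 and 73.8 CPM in control, at 82.8 and 82.8 CPM with SRPIN340, and at 178, 177 and 189 CPM in acidosis (log2 fold change 1.31 ± 0.0708 (SE), adjusted p = 2.59e-07 by edgeR). The acidosis libraries were clear of all others. STK3 and STK4, the kinases above LATS1 and LATS2, had log2 fold changes of 0.03 and -0.14 with adjusted p of 0.841 and 0.28 by edgeR.

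Of the 17 upstream activators, 1 rose (5.88%, against 14.4% of all genes) and 4 fell (23.5%, against 19.1%). NF2, which encodes merlin, the membrane scaffold that recruits LATS kinases, was at 100.3 and 86.9 CPM in control, at 100.3 and 103 CPM with SRPIN340, and at 24.9, 25.6 and 23.2 CPM in acidosis, which puts every acidosis library far below the rest (log2 fold change -1.93 ± 0.0944 (SE), adjusted p = 1.39e-07 by edgeR). FAT4, an atypical cadherin, had a log2 fold change of -1.38 (adjusted p = 6.29e-05 by edgeR). The smallest changes that passed were those of FRMD6, a FERM domain protein, at -1.02 (adjusted p = 6.8e-05 by edgeR) and of the kinase TAOK3 at -1.01 (adjusted p = 0.000586 by edgeR), and both calls were lost without acidosis replicate 1, that of FRMD6 also without control replicate 2, and that of TAOK3 also without acidosis replicate 2 or control replicate 1, in each case because the fold no longer passed its limit; RLE size factors removed both calls as well, and DESeq2 that of TAOK3. WWC3, of the KIBRA family of scaffolds, rose by 1.24 (adjusted p = 7.51e-07 by edgeR). In edgeR its relative WWC1 (KIBRA) was the only listed gene with an adjusted p under 0.05 with SRPIN340 (0.0261). DESeq2 gave 5 listed genes under that limit. Over all genes 2.3% passed it in edgeR, and the share in DESeq2 is not given here. The log2 fold change of WWC1 was 0.72 ± 0.122 (SE), which is under the limit for calls.

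Of the 11 genes of the STRIPAK phosphatase complex and other inhibitors of the cassette, 0 were called in acidosis. Of all genes 14.4% were called higher and 19.1% lower. The median log2 fold change of these 11 genes was -0.33. Without the limit on the fold, 3 were higher and 5 lower by adjusted p, beside 32.5% and 34.2% of all genes by the same rule. Of the 6 genes for binding and turnover of YAP1 and WWTR1, 1 rose (16.7%, against 14.4% of all genes) and 2 fell (33.3%, against 19.1%). AMOT, the founding angiomotin and a relative of AMOTL2, was at 392 and 352 CPM in control, at 268 and 257 CPM with SRPIN340, and at 58.4, 68.0 and 50.5 CPM in acidosis. Control was highest and acidosis lowest, with no overlap between the 3 groups. AMOT fell in acidosis by 2.66 on the log2 scale (SE 0.109, adjusted p = 5.01e-08 by edgeR), opposite in direction to AMOTL2, and had -0.50 with SRPIN340 (adjusted p = 0.0581 by edgeR). BTRC, which encodes a substrate receptor of the ubiquitin ligase for phosphorylated YAP1 and WWTR1, fell by 1.48 (adjusted p = 3.58e-06 by edgeR). CSNK1E, a casein kinase that takes part in this turnover, rose by 1.23 (adjusted p = 5.39e-07 by edgeR).

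Of the 6 tested TEAD paralogs and VGLL cofactors, TEAD2 and VGLL2 fell (33.3%, against 19.1% of all genes) and 0 rose (against 14.4%). VGLL2, a transcriptional cofactor that binds TEAD proteins, had 63 and 51 counts in control and 3, 0 and 3 counts in acidosis, at least 8.56-fold lower with each acidosis library taken at 3 counts (adjusted p = 0.000498 by edgeR). VGLL1 was not tested because of its low counts. Of the 9 paralogs and partners of the 10 genes, 5 were tested and 0 called, and CCN4, CCN5, CCN6 and ANKRD2, paralogs of CCN1, CCN2 and ANKRD1, had too few counts to be tested.

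Of the 16 other YAP/TEAD target genes, 5 rose (31.2%, against 14.4% of all genes) and 1 fell (6.25%, against 19.1%). Their median log2 fold change was 0.45. The list was chosen with earlier results of these data known, so nothing is read from these shares. GADD45A, a stress sensor of growth arrest and DNA damage, was at 42.6 and 34.8 CPM in control, at 48.5 and 40.2 CPM with SRPIN340, and at 949.6, 1004 and 909.7 CPM in acidosis (log2 fold change 4.63 ± 0.123 (SE), adjusted p = 6.49e-09 by edgeR). NUAK2, an AMPK-related kinase, was at 1.84 and 1.86 CPM in control, at 1.92 and 2.43 CPM with SRPIN340, and at 26.5, 25.2 and 27.5 CPM in acidosis (log2 fold change 3.83 ± 0.183 (SE), adjusted p = 1.2e-07 by edgeR). In both genes the acidosis libraries were far above the other 4, and the SRPIN340 libraries lay near control. TGFB2, a ligand of the TGF-beta receptors, rose by 1.70 (adjusted p = 1.51e-05 by edgeR) and was at 0.68 with SRPIN340 (adjusted p = 0.0866 by edgeR). F3, tissue factor, rose by 1.30 (adjusted p = 9.04e-05 by edgeR), as did MYOF, myoferlin, by 1.30 (adjusted p = 0.000142 by edgeR), which was named after its values were seen. CCDC80, a secreted matrix protein, fell by 2.56 (adjusted p = 1.97e-06 by edgeR). LATS1, WWC3, CSNK1E, F3 and MYOF were no longer called higher under library totals, where they lay at 0.73, 0.66, 0.66, 0.73 and 0.73, and GADD45A, NUAK2 and TGFB2 were still called.

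**Figure D5:**
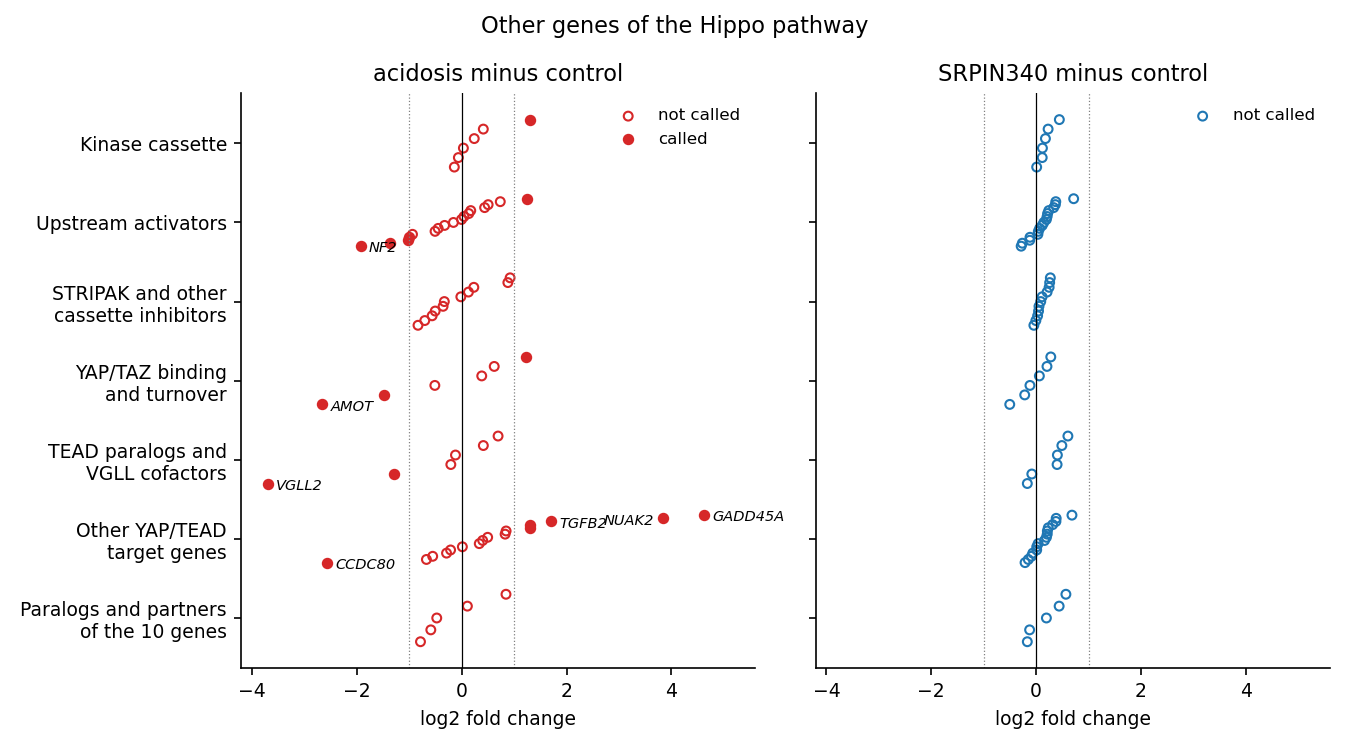
Log2 fold change of the 67 tested pathway genes by list, for acidosis minus control on the left and SRPIN340 minus control on the right. Filled points were called, open points were not, dotted lines are the limits on the fold, and the value of VGLL2 is a fitted one for a gene at or under 3 counts in acidosis. In acidosis 8 genes rose and 9 fell, with GADD45A at 4.63 and AMOT at -2.66, and with SRPIN340 0 were called.

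The likeness of 2 genes was measured as the root mean square difference of their log2 CPM, each taken relative to its control mean, over the 5 acidosis and SRPIN340 libraries, with a prior count of 0.5, so that a smaller value is a closer pattern. Among the 10 genes CCN1 and CCN2 were closest at 0.25, followed by AJUBA and YAP1 at 0.30, YAP1 and WWTR1 at 0.33, YAP1 and TEAD1 at 0.34 and AMOTL2 and LATS2 at 0.34. AXL, with a mean under 10 CPM, was not compared. ANKRD1 stood apart even from CCN1 (1.56) and CCN2 (1.74), with higher fold changes in both treatments.

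A mean of 10 CPM or more was reached by 10110 other genes, of which the 5 closest to ANKRD1 were CXCL8 (0.71), RHOB (0.94), H2AC19 (1.63), ARL14 (1.83) and FOS (2.00). CXCL8, the chemokine interleukin 8, was at 0.612 and 0.632 CPM in control, at 1.81 and 1.48 CPM with SRPIN340, and at 231, 219.5 and 254 CPM in acidosis. RHOB, a small GTPase of the actin cytoskeleton and endosomes, was at 52.0 and 49.5 CPM in control, at 111 and 79.4 CPM with SRPIN340, and at 17007, 16682 and 18030.2 CPM in acidosis. Like ANKRD1, both were higher than control in each SRPIN340 library and far higher in each acidosis library. H2AC19 had 0 counts in control and SRPIN340 libraries and 14.5, 63.2 and 17.5 CPM in acidosis, and its coding sequence is nearly identical to that of another histone gene, so its counts are uncertain. Its distance of 1.63 and its place rest on the prior count, since its control level is 0.

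The 5 genes closest to CCN1 were ARL14 (0.43), H2BC21 (0.48), FOS (0.48), RHOB (0.64) and GADD45B (0.83). FOS, a subunit of AP-1, was at 0.829 and 0.913 CPM in control, at 1.25 and 0.835 CPM with SRPIN340, and at 117, 125 and 128 CPM in acidosis. GADD45B, a relative of GADD45A, was at 12.6 and 12.4 CPM in control, at 13.4 and 12.2 CPM with SRPIN340, and at 1287, 1262 and 1253 CPM in acidosis. In these 2 genes the SRPIN340 libraries overlapped control, unlike those of CCN1. ARL14, a small GTPase of the ADP-ribosylation factor family, was at 0.612 and 0.316 CPM in control, at 0.774 and 0.342 CPM with SRPIN340, and at 77.3, 76.1 and 80.6 CPM in acidosis. H2BC21, a histone H2B gene, was at 3.53 and 4.49 CPM in control, at 4.83 and 4.59 CPM with SRPIN340, and at 556, 559.8 and 525 CPM in acidosis. Both sets came from a search over the same libraries and are a description of the pattern with no test.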

How the data were processed

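Poly(A) RNA of HEK-293 cells was sequenced in 7 libraries (control, n = 2; SRPIN340, n = 2; acidosis, n = 3), which were grouped by the treatment given in the labels. Per the labels and the study's methods, the authors trimmed the reads (Trimmomatic 0.39, Trim Galore 0.6.6), quantified them with Salmon 1.5.1 against a GRCh38 transcriptome and used tximport for sums by gene. What they deposited is a table of estimated counts, not normalized between libraries. Salmon divides reads among transcripts that share sequence, so genes with near-identical copies are uncertain. In GENCODE release 44, exons of AJUBA overlap a read-through gene on the same strand that had 0 counts, exons of AMOTL2 a pseudogene, and exons of AXL, CCN2, WWTR1 and YAP1 opposite-strand non-coding genes. Whether strand was used in the counting is not given in the sources used here.

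The estimated counts were rounded and fitted in R 4.3.3 with edgeR 4.0.16 (TMM, filterByExpr, quasi-likelihood test, 1 fit over all 7 libraries). Of 19978 genes, 14863 were tested. CPM were computed with TMM-scaled totals, and CPM per kb with the spliced length of the canonical transcript in GENCODE release 44 (19977 genes matched). Standard errors (SE) are the log2 fold change divided by the root of its F statistic. A call needed a log2 fold change beyond 1 in either direction and a p below 0.05 after Benjamini-Hochberg adjustment. The fit was tested on simulated data. DESeq2 1.42.0, the tool of the study, other scalings, no filter, no limit on the fold, the compared groups alone, a replicate block and leaving out each library were alternatives. Totals of 13615944 to 24110439 counts limit precision for genes of a few CPM.

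The 10 genes and all lists were chosen with earlier results of these data known. From the lists, every gene called with SRPIN340 was named, every gene called in acidosis in lists of up to 11 genes, the 4 called genes with the largest fold in each direction in longer lists, every tested TEAD gene, and the 5 genes most like ANKRD1 and CCN1. Promoter sequences are from RefSeq (GRCh38.p14). Alternative splicing was not analysed here.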

Additional observations from a re-analysis of the deposited data

How the results depend on the processing

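Over all alternatives, the log2 fold change of ANKRD1 in acidosis lay between 8.75 (library totals alone) and 9.47, and leaving out 1 library gave 9.17 to 9.47. With SRPIN340 it lay between 1.67 and 2.07. The number of listed pathway genes called in acidosis was 17 (8 higher and 9 lower). Without the limit on the fold it was 45 of 67 (23 higher and 22 lower; 66.7% of all genes passed), and library totals gave 3 higher and 21 lower (all genes, 815 and 5202). With SRPIN340 it was 0, and 1, higher, without the limit on the fold. Leaving out 1 library gave 16 to 18 pathway calls in acidosis (8 to 9 higher and 8 to 10 lower) and 0 with SRPIN340. Of the 10 genes, 6 rather than 5 were called higher in acidosis with DESeq2, with RLE size factors, and without control replicate 1, acidosis replicate 2 or acidosis replicate 3, since AJUBA then passed the limit on the fold, and library totals added AXL as called lower. Without the limit on the fold 9 of the 10 were higher in acidosis and 2 with SRPIN340. With SRPIN340, AJUBA moved from 0.29 to 0.48 without control replicate 1. Over all genes, the number called higher with SRPIN340 ranged from 3 to 33 under the alternatives that keep the limit on the fold, and was 114 without it.

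Replicate numbers are shared between the groups in the labels, but deviations of same-numbered libraries from their group means correlated at -0.109 to 0.054, so the number was not taken to pair them. A fit with a replicate block gave 18 pathway calls in acidosis (8 higher and 10 lower), 0 with SRPIN340, and a log2 fold change of 9.30 for ANKRD1 in acidosis and 1.88 with SRPIN340. Depth limits AXL, ANKRD1 in control and VGLL2 in acidosis, which rest on few counts.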
